A study of Mus musculus with 12 samples.

Results

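The genes described here are 35 integrin chains and leukocyte adhesion molecules, picked by name from a table of normalized counts for 23479 mouse genes. They are 13 integrin alpha chains, 7 integrin beta chains, 7 adhesion molecules of the immunoglobulin superfamily, 3 genes of the selectin and hyaluronan systems (P-selectin, its ligand and Cd44), 3 sphingosine-1-phosphate receptors and 2 tetraspanins. All 35 were in the table. RNA came from monocytic (M-MDSC) and polymorphonuclear (PMN-MDSC) myeloid derived suppressor cells, sorted by flow cytometry at a stated purity above 99% from spleens of C57BL/6 mice carrying B16 melanoma of more than 25 mm2. LD mice had received cyclophosphamide and fludarabine, a lymphodepleting pair of drugs, after the tumours were established, and their spleens were taken 7 days later. Ctrl mice carried the same tumour and were untreated. This gave 4 groups of 3 libraries, M-MDSC LD, M-MDSC Ctrl, PMN-MDSC LD and PMN-MDSC Ctrl. The surface markers of the sort gates and the age and sex of the mice are not given in the sources used here. The design names 3 mice per treatment. Whether each replicate is its own animal, and whether both populations of a number came from 1 mouse, is not given, so p-values measure only the spread between these samples.

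Integrins are surface receptors made of an alpha and a beta chain, and each pair binds its own set of ligands on other cells or in the matrix. In myeloid cells the beta 2 pairs, alpha L (LFA-1) and alpha M (Mac-1, CD11b), serve firm adhesion to ICAM proteins on endothelium, after selectins and their ligand PSGL-1 have let the cell roll along the vessel wall. JAM proteins and PECAM-1 act at cell junctions during passage through the wall, tetraspanins gather integrins into membrane domains, and receptors for sphingosine-1-phosphate sense a lipid that is high in blood and guides leukocyte traffic out of tissues.

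Depth was 8906045 to 16242926 recovered reads per library. Of the 35 genes, 30 had a mean normalized count of at least 10 over the 12 libraries and were tested. A gene is called where its limma p-value, adjusted over all 11122 tested genes, was under 0.05. Marker genes followed the labels of both populations. The summed normalized counts of 10 monocyte markers were 70984 to 91105 in M-MDSC LD, 100159 to 119407 in M-MDSC Ctrl, 8471 to 10715 in PMN-MDSC LD and 10147 to 12767 in PMN-MDSC Ctrl. For 10 neutrophil markers the sums were 9772 to 39559 in M-MDSC LD, 5947 to 6748 in M-MDSC Ctrl, 553985 to 630673 in PMN-MDSC LD and 413110.0 to 449207 in PMN-MDSC Ctrl. Replicate 1 of LD stood apart in both populations by its sum over 12 cell division genes, which was 13960.2, 4149.6 and 5687 in M-MDSC LD replicates 1, 2 and 3 and 11061, 2209 and 3461 in those of PMN-MDSC LD, against 1278 to 1619 in M-MDSC Ctrl and 2937 to 3821 in PMN-MDSC Ctrl.

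Per kb of exon, a scale on which genes can be compared with each other, a few chains held most of the integrin RNA. Among alpha chains in M-MDSC, Itgal (alpha L of LFA-1) stood at 2432 ± 90.7 normalized counts per kb in LD and 2144 ± 95.3 in Ctrl (mean ± SD, n = 3 each). Itgam (alpha M of Mac-1) came next in M-MDSC, at 1919.5 ± 199.7 per kb in LD and 2066 ± 142 in Ctrl. The ranges of these neighbours overlapped in M-MDSC Ctrl and did not in M-MDSC LD. In PMN-MDSC the order was turned round, with Itgam at 8203 ± 1177 per kb in LD and 6695 ± 114 in Ctrl, and Itgal at 4111 ± 609 in LD and 4523 ± 283 in Ctrl. Itga4, the alpha 4 chain that pairs with beta 1 or beta 7, was the third in each of the 4 groups, and Itga5, a fibronectin receptor chain, the fourth. Itgav, which pairs with several beta chains, was the fifth. The other 8 alpha chains lay below 39.0 per kb in all other libraries than M-MDSC Ctrl replicate 2, where Itga1 reached that level.

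Itgb2, the beta 2 chain shared by LFA-1 and Mac-1, was the leading beta chain in all 4 groups, at 4966 ± 401 per kb in M-MDSC LD, 4235 ± 347 in M-MDSC Ctrl, 12686 ± 1995 in PMN-MDSC LD and 9725 ± 1109 in PMN-MDSC Ctrl. In M-MDSC, Itgb1 and Itgb7 followed at like levels whose ranges overlapped, 1446 to 1499 and 881 to 1822 per kb in LD, and 1240.0 to 1457 and 1149 to 1431 in Ctrl. In PMN-MDSC Ctrl both lay near 426 per kb, with overlapping ranges. Exon lengths are those of all annotated transcripts merged, so a gene with unused long exons is placed too low.

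**Figure D1:**
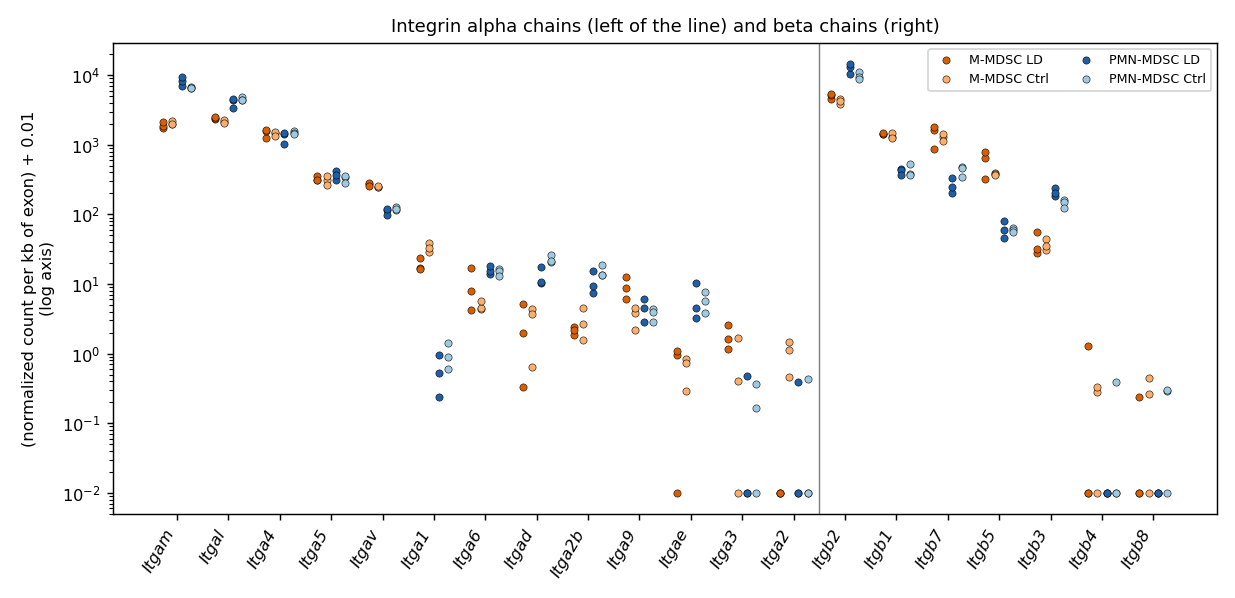
Normalized count per kb of exon on a log axis for 13 integrin alpha chains and 7 beta chains, with 1 point per library and 4 groups per gene (M-MDSC LD, M-MDSC Ctrl, PMN-MDSC LD, PMN-MDSC Ctrl, left to right). A small constant was added so that libraries at 0 appear on the lowest line. Itgam, Itgal, Itga4 and Itgb2 have the highest means in every group, while Itga2, Itga3, Itgb4 and Itgb8 sit at or near the lowest line. In M-MDSC the points of Itgb1 and Itgb7 overlap those of Itga4.

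The 5 genes too low to be tested were Itga2 and Itga3 (collagen and laminin receptor chains), Itgb4 (the epithelial laminin receptor chain), Itgb8 and Icam4 (a red cell adhesion molecule). Itga2 had 0, 0 and 0 normalized counts in M-MDSC LD and 3.24, 10.5 and 7.85 in M-MDSC Ctrl, so that it was read in all Ctrl libraries of M-MDSC and in none of LD. Itga3 ranged over 6.52 to 14.8 in M-MDSC LD, 0 to 9.57 in M-MDSC Ctrl, 0 to 2.71 in PMN-MDSC LD and 0 to 2.04 in PMN-MDSC Ctrl. Itgb4 and Itgb8 had at most 8.87 and 4.78 normalized counts in any library. Icam4 had at most 23.5, in PMN-MDSC LD replicate 2, and all of its exon bases overlap a gene on the other strand. Strandedness is not given in the sources used here, so reads of overlapping genes cannot be told apart.

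The comparison of the populations asks which adhesion genes tell M-MDSC from PMN-MDSC. In Ctrl mice, 25 of the 30 tested genes were called, 8 higher and 17 lower in M-MDSC. Of all tested genes 75.6% were called, 38.8% higher and 36.8% lower. The median log2 difference, M-MDSC minus PMN-MDSC, was -1.34 over the 30 genes and 0.06 over all tested genes. Itgae, Selp, Jam3 and S1pr1 averaged under 10 normalized counts in both M-MDSC groups and passed the minimum only through PMN-MDSC. For these genes the filter itself favours lower values in M-MDSC, in Ctrl and in LD. Their direction, and their part in the counts and medians, is therefore no independent result. The beta 2 integrin chains, Selplg, Cd44 and the tetraspanins were lower in M-MDSC, and the beta 1, beta 5 and beta 7 chains were higher. In 26 genes the libraries of the populations did not overlap, as for 81% of all tested genes. In LD mice 26 of 30 genes were called, 9 higher and 17 lower in M-MDSC. Of all tested genes 74.8% were called, 38.8% higher and 36.1% lower. The adhesion genes had a median log2 difference of -0.91 in LD, beside 0.10 over all tested genes. Libraries did not overlap for 24 of these genes, against 75.2% of all tested genes. With most tested genes called between these cell types, the share called among the adhesion genes lay near the background. In bulk samples, fewer cells of a type and less RNA per cell cannot be told apart.

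**Figure D2:**
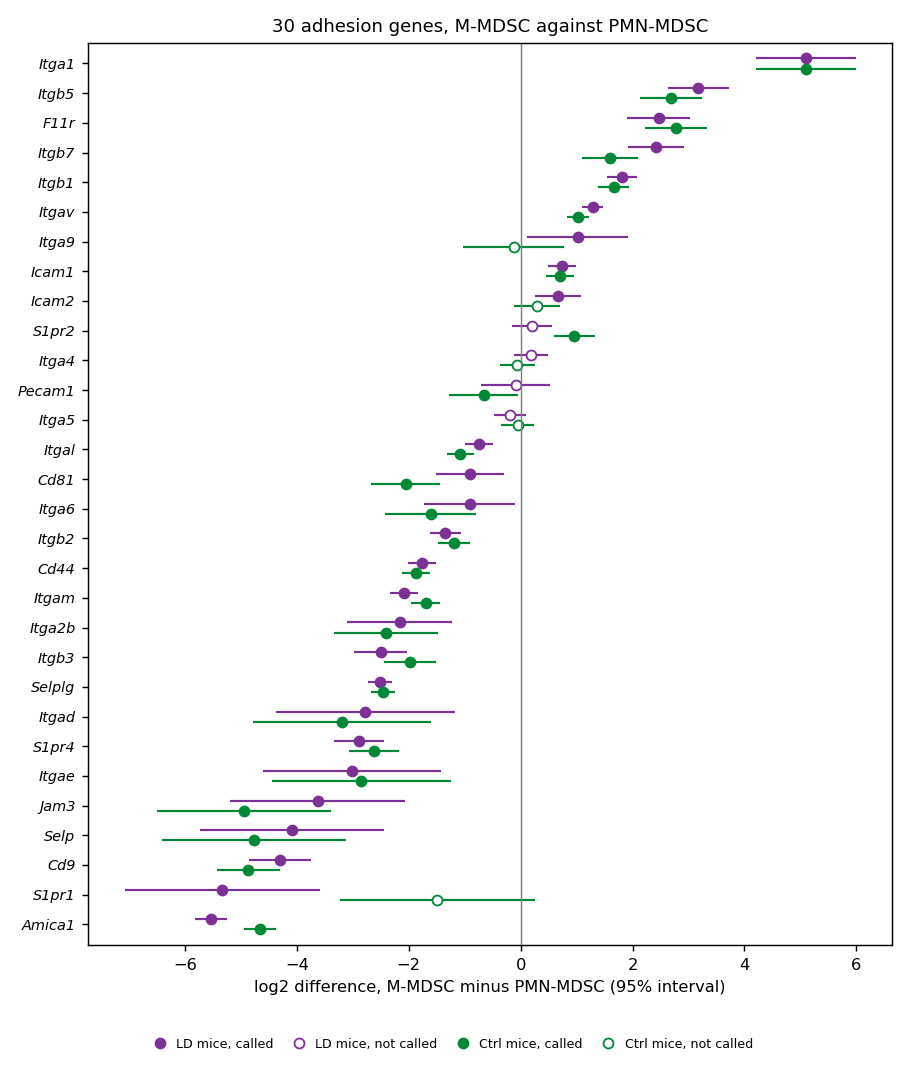
Log2 difference, M-MDSC minus PMN-MDSC, with its 95% interval for the 30 tested adhesion genes, in LD mice (purple, upper of each pair) and Ctrl mice (green), ordered by the difference in LD mice. Filled points are called. Itga1, Itgb5 and F11r lie far to the right in both treatments, and Amica1, Cd9, Selp and Jam3 far to the left. Selp and Jam3 passed the minimum only through PMN-MDSC.

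Among genes higher in M-MDSC, Itga1, the alpha 1 chain of a collagen receptor, differed most. It had 534, 725 and 618 normalized counts in M-MDSC Ctrl and 26.5, 16.7 and 11.2 in PMN-MDSC Ctrl, a log2 difference of 5.10 (SE 0.42, limma adjusted p = 4.04e-08), or 34.4-fold on the scale with 1 added. F11r, the junctional molecule JAM-A, had 443, 197 and 335 in M-MDSC Ctrl and 51.0, 37.8 and 44.7 in PMN-MDSC Ctrl, a log2 difference of 2.78 (SE 0.26, limma adjusted p = 1.86e-07). In both genes every M-MDSC library lay above every PMN-MDSC library. Itgb5, which pairs with alpha v in a vitronectin receptor, had 1405, 1361 and 1320.0 in M-MDSC Ctrl and 226, 210.1 and 196 in PMN-MDSC Ctrl, and its log2 difference was 2.69 (SE 0.26, limma adjusted p = 2.24e-07). Its partner chain Itgav had 2624, 2647 and 2744 and 1371, 1259 and 1304 in the same groups, a smaller log2 difference of 1.03 (SE 0.09, limma adjusted p = 9.86e-08). Both vitronectin receptor chains were higher in every M-MDSC library.

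Itgb1, the most widely shared beta chain, had 5309, 5946 and 5061 normalized counts in M-MDSC Ctrl and 2159.6, 1568 and 1489 in PMN-MDSC Ctrl, a log2 difference of 1.66 (SE 0.13, limma adjusted p = 1.86e-08). Itgb7, the beta 7 chain known for homing to gut with alpha 4, had 3542, 3964 and 3183 in M-MDSC Ctrl and 1309, 1279.7 and 953 in PMN-MDSC Ctrl, a log2 difference of 1.60 (SE 0.23, limma adjusted p = 1.96e-05). The alpha 4 chain that pairs with both, Itga4, had overlapping libraries, 20504, 21566 and 18873 in M-MDSC Ctrl and 22402, 20967 and 20004 in PMN-MDSC Ctrl. Its log2 difference was -0.06 (limma adjusted p = 0.728), with a 95% interval of -0.36 to 0.25. The interval for alpha 4 spans no change, while beta 1 and beta 7 RNA differed by 3.16-fold and 3.03-fold. Icam1 and S1pr2 completed the genes called higher, by 0.71 and 0.96 on the log2 scale.

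The beta 2 integrins were lower in M-MDSC. Itgb2 had 11882, 13998 and 12897 normalized counts in M-MDSC Ctrl and 33348, 29022 and 26676 in PMN-MDSC Ctrl, a log2 difference of -1.20 (SE 0.13, limma adjusted p = 1.18e-06). Itgam had 10005, 11204 and 9932 in M-MDSC Ctrl and 34295, 33288 and 33322 in PMN-MDSC Ctrl, a log2 difference of -1.70 (SE 0.12, limma adjusted p = 7.18e-09). For Itgal the values were 13729.6, 14808 and 13716 in M-MDSC Ctrl and 31859, 28608 and 28660.0 in PMN-MDSC Ctrl, a log2 difference of -1.08 (SE 0.12, limma adjusted p = 8.01e-07). No library of one population reached the range of the other in these 3 genes. Of the Itgam exon bases, 68.7% are shared with the predicted gene Gm49368 on the same strand, and how reads shared by overlapping genes were counted is not given in the sources used here. Itgad, a further beta 2 partner found on some macrophages, was at 2.87 to 19.5 in M-MDSC Ctrl and 92.8 to 118 in PMN-MDSC Ctrl, a log2 difference of -3.19 (SE 0.75, limma adjusted p = 0.00134), and of -2.42 without M-MDSC Ctrl replicate 2. Itgae, which pairs with beta 7 and binds E-cadherin, was at 1.30 to 3.83 in M-MDSC Ctrl and 17.6 to 34.7 in PMN-MDSC Ctrl, a log2 difference of -2.85 (SE 0.75, limma adjusted p = 0.00306). These low genes depend on the offset: with 8 added in place of 1 the differences were -2.49 for Itgad and -1.64 for Itgae. Itgae passed the minimum only through PMN-MDSC, so its direction is no independent result.

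Selplg and Cd44, genes of rolling adhesion, were also lower in M-MDSC. Selplg, which encodes PSGL-1, the ligand of selectins, had 2149.8, 2307 and 2089.6 normalized counts in M-MDSC Ctrl and 13838, 11332 and 11071 in PMN-MDSC Ctrl, a log2 difference of -2.46 (SE 0.10, limma adjusted p = 2.94e-11). Cd44, the hyaluronan receptor and an E-selectin ligand of neutrophils, had 9629, 11209.7 and 9321 in M-MDSC Ctrl and 39769, 36362 and 34059.9 in PMN-MDSC Ctrl, a log2 difference of -1.87 (SE 0.12, limma adjusted p = 2.36e-09). Both were lower in every M-MDSC library. Selp, the P-selectin of platelets and endothelium, had 0, 15.3 and 8.41 in M-MDSC Ctrl and 165, 105 and 172 in PMN-MDSC Ctrl, a log2 difference of -4.76 (SE 0.77, limma adjusted p = 5.40e-05). That value was -3.55 without M-MDSC Ctrl replicate 1, -5.57 without replicate 2 and -3.39 with 8 added. Selp passed the minimum only through PMN-MDSC, so its direction is no independent result. The platelet integrin chains were also lower, with log2 differences of -2.40 for Itga2b and -1.98 for Itgb3. The summed counts of 11 platelet and megakaryocyte markers were 20.8 to 23.0 in M-MDSC Ctrl and 182 to 262 in PMN-MDSC Ctrl, mostly Clec1b and Tubb1. Of these markers, Pf4 and Gp9 had at most 3.06 and 3.19 normalized counts in any of the 12 libraries. Gp1bb had 0, 0 and 0 in M-MDSC Ctrl, 5.10, 12.3 and 9.58 in PMN-MDSC Ctrl and 28.4, 36.8 and 36.5 in PMN-MDSC LD. All 3 tested platelet markers were called lower in M-MDSC in Ctrl and in LD, where 36.8% and 36.1% of all tested genes were lower. Over 8 endothelial markers the sums were 10.5 to 39.8 in M-MDSC Ctrl and 7.98 to 40.8 in PMN-MDSC Ctrl. The part of other cells in the Selp, Itga2b and Itgb3 results was not tested.

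Jam3, the junctional molecule JAM-C, had 0 reads in all 6 M-MDSC libraries. In PMN-MDSC Ctrl it had 45.9, 29.9 and 19.2 normalized counts, so that it was at least 43.8-fold lower in M-MDSC Ctrl, taking 3 reads over the group as the limit of a count of 0. Part of its exons (36.2%) overlaps a gene on the other strand. Jam3 passed the minimum only through PMN-MDSC, so its direction is no independent result. Amica1, now named Jaml, encodes a junctional adhesion molecule like protein that neutrophils use in crossing epithelium. It had 232, 246 and 279 in M-MDSC Ctrl and 6759, 6397 and 5928 in PMN-MDSC Ctrl, a log2 difference of -4.65 (SE 0.13, limma adjusted p = 1.19e-12), 25.1-fold lower. The tetraspanin Cd9, known as a partner of beta 1 integrins, had 57.7, 92.8 and 57.2 in M-MDSC Ctrl and 2413, 1903 and 1735 in PMN-MDSC Ctrl, a log2 difference of -4.87 (SE 0.26, limma adjusted p = 4.50e-10), 29.2-fold lower. Cd81, S1pr4, Itga6 and Pecam1 were the other genes called lower, with log2 differences of -2.06, -2.61, -1.61 and -0.66. Pecam1 was at the threshold (limma adjusted p = 0.0499) and lost its call without any 1 of the 6 Ctrl libraries, M-MDSC LD replicate 3 or PMN-MDSC LD replicate 3, at -0.55 and adjusted p = 0.144 without M-MDSC Ctrl replicate 2. Itga5, Itga9, Icam2 and S1pr1 were not called, with log2 differences of -0.06, -0.12, 0.29 and -1.49.

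In LD mice the calls of 5 genes were not those of Ctrl mice, which does not show that their differences between populations changed. Icam2, an LFA-1 ligand, and Itga9, the alpha 9 chain that pairs with beta 1, were called higher in M-MDSC LD, with log2 differences of 0.67 (limma adjusted p = 0.00549) and 1.02 (limma adjusted p = 0.0407). The Itga9 call was lost without M-MDSC LD replicate 1 or 3 or PMN-MDSC LD replicate 1 or 3, with adjusted p up to 0.162. S1pr1, the receptor that draws lymphocytes into blood, had 0, 0 and 4.93 normalized counts in M-MDSC LD and 27.1, 115 and 119 in PMN-MDSC LD, a log2 difference of -5.34 (SE 0.81, limma adjusted p = 3.18e-05). That value was -6.19 with M-MDSC LD replicate 3 left out, -6.03 with PMN-MDSC LD replicate 1 left out and -3.12 with 8 added. S1pr1, Itgae and Jam3 passed the minimum only through PMN-MDSC, so their direction in LD is no independent result. S1pr2 and Pecam1 were not called in LD, at 0.20 and -0.09. Of the called genes, Cd81 and Itga6 had overlapping libraries in LD. Cd81 lost its call without M-MDSC LD replicate 2 (-0.73, adjusted p = 0.0502 by limma) or PMN-MDSC LD replicate 1 (-0.64, adjusted p = 0.0564). Itga6, a laminin receptor chain, differed by -0.91 (limma adjusted p = 0.04), and its call was lost without any 1 of M-MDSC LD replicates 2 and 3, PMN-MDSC LD replicates 2 and 3 and PMN-MDSC Ctrl replicates 1 and 2. Its difference was -0.44 without M-MDSC LD replicate 3. Among low genes, Itgad gave -1.89 with M-MDSC LD replicate 1 left out and -3.54 with replicate 2 left out, where all libraries gave -2.78. Itgae gave -2.18 without M-MDSC LD replicate 2, where all libraries gave -3.01. Jam3 was at least 15.7-fold lower in M-MDSC LD, where it had no read, than in PMN-MDSC LD at 20.3, 4.41 and 15.4.

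Few of these genes were called between LD and Ctrl in M-MDSC. Cd9 and Cd81 rose and Amica1 fell, which makes 3 of 30 called, 2 higher and 1 lower. The 30 include Itgae, Selp, Jam3 and S1pr1, which averaged under 10 normalized counts in both M-MDSC groups and passed the minimum through PMN-MDSC. Of these Jam3, with no read in M-MDSC, could not be called. Of all tested genes 3.01% were called, 2.54% higher and 0.468% lower. In 9 of the 30, LD and Ctrl libraries did not overlap, against 23.1% of all tested genes. The median log2 change was 0.08 over the 30 genes and -0.04 over all tested genes, and 6 genes had an unadjusted p under 0.05. None of the 11 tested alpha chains and 5 tested beta chains was called by limma, while 1 alpha chain and 0 beta chains had an unadjusted p under 0.05. DESeq2 called Itga1 and Itga9.

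Cd81, a tetraspanin that gathers membrane receptors (chr7:143052750-143067930, GRCm38, plus strand), had 208, 111 and 122 normalized counts in M-MDSC LD and 44.1, 44.97 and 48.2 in M-MDSC Ctrl. Its log2 change was 1.61 (SE 0.29, limma adjusted p = 0.00611), 3.05-fold, and it was higher in 3 of 3 LD libraries than in any Ctrl library. The highest LD library was replicate 1. Cd9 (chr6:125460266-125494760, minus strand) had 254, 104 and 152 in M-MDSC LD and 57.7, 92.8 and 57.2 in M-MDSC Ctrl, a log2 change of 1.22 (SE 0.26, limma adjusted p = 0.0192), 2.33-fold. Its lowest LD library lay just above its highest Ctrl library. The Cd9 call was lost without M-MDSC LD replicate 1 (0.88, adjusted p = 0.0543 by limma), M-MDSC LD replicate 3 (1.26, adjusted p = 0.0547), M-MDSC Ctrl replicate 1 (1.11, adjusted p = 0.0911) or M-MDSC Ctrl replicate 3 (1.11, adjusted p = 0.0864).

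Both tetraspanins were also higher in PMN-MDSC than in M-MDSC, and genes of neutrophil granules were higher in the same LD libraries. The sum over 8 granule genes was 56886, 11950.3 and 25023 normalized counts in M-MDSC LD replicates 1, 2 and 3, 2134 to 2726 in M-MDSC Ctrl, 232421 to 313857 in PMN-MDSC LD and 104428 to 117580.0 in PMN-MDSC Ctrl, and 8 of 8 were called higher in M-MDSC LD. The LD libraries had the same order, replicate 1, then 3, then 2, in this sum, in Cd9 and in Cd81. The sums over 12 cell division genes and over 10 neutrophil markers had this order too. The sum over 7 macrophage markers ran replicate 3, then 2, then 1. Between the populations the 8 granule genes were mixed, with 5 called lower and 3 higher in M-MDSC than in PMN-MDSC, in Ctrl and in LD. For 7 macrophage markers the sum was 1126 to 1504 in M-MDSC LD and 598 to 796 in M-MDSC Ctrl, with 3 called higher, and 9 of the 12 cell division genes were called higher. The part of cells with granule RNA, dividing cells and macrophages in the Cd9 and Cd81 results was not tested.

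Amica1 (chr9:45079153-45108531, plus strand) went the other way. It had 132, 115 and 127 normalized counts in M-MDSC LD and 232, 246 and 279 in M-MDSC Ctrl, a log2 change of -1.01 (SE 0.13, limma adjusted p = 0.000779), 2.01-fold lower. Every LD library was below every Ctrl library, with little spread in either group. Amica1 was 46.2-fold lower in M-MDSC LD than in PMN-MDSC LD. The neutrophil marker sums given above were higher in M-MDSC LD than in M-MDSC Ctrl, and their part in the Amica1 result was not tested. The calls of Amica1 and Cd81 held without each 1 of the 12 libraries (largest limma adjusted p 0.00478 and 0.0275). Part of the Amica1 exons (12.8%) overlaps Gm10684 on the other strand.

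To show the upstream sequence of the genes called in M-MDSC, the bases before the start of Cd9, Cd81 and Amica1 are given from RefSeq (GRCm38.p6), 5′ to 3′ on the strand of the gene, 250 bases each. The regions are chr6:125494761-125495010 (minus strand), chr7:143052500-143052749 (plus strand) and chr9:45078933-45079182 (plus strand), and the last ends just inside the annotated gene. Capitals mark GC boxes (GGGCGG), letters bound by SP1 family factors in many promoters without a TATA box.
Cd9: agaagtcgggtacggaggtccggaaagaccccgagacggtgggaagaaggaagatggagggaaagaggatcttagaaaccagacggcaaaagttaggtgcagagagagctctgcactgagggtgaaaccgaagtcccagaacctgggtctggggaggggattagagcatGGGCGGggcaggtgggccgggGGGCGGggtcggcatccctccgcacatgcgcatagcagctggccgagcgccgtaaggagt
Cd81: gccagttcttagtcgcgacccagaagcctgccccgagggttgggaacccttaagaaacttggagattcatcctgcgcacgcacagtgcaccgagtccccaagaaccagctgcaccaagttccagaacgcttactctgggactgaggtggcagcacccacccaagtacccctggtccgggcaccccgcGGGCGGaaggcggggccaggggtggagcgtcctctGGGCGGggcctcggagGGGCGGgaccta
Amica1: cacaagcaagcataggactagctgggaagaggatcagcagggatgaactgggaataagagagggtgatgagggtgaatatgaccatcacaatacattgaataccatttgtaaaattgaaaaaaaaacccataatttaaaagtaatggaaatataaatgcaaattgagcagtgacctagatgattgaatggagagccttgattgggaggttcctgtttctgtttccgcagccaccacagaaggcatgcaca
The Cd9 window held 2 GC boxes, at 81 to 76 and 60 to 55 bases before the start. The Cd81 window held 3, at 63 to 58, 28 to 23 and 12 to 7 bases before it. The Amica1 window held none, and no match says only that these letters are not in this window. Both strands were searched for GGGCGG, for the ETS core GAGGAA and for the AP-1 site TGACTCA. Of 32851 RefSeq windows of the same length, 32.7% held GGGCGG, 23.3% GAGGAA and 4.46% TGACTCA. Neither GAGGAA nor TGACTCA was found in any of the 3 windows. A match is a description of letters and not of a bound site.

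The other genes with an unadjusted p under 0.05 in M-MDSC were Itga9, S1pr4 and S1pr1. Itga9 had 68.1, 47.5 and 96.5 normalized counts in M-MDSC LD and 16.9, 29.7 and 34.2 in M-MDSC Ctrl, a log2 change of 1.36 (SE 0.42, limma adjusted p = 0.11). S1pr4 had 167, 101 and 137 in M-MDSC LD and 85.6, 89.0 and 65.6 in M-MDSC Ctrl, a log2 change of 0.73 (SE 0.21, limma adjusted p = 0.078). In both genes the LD libraries lay above the Ctrl libraries. S1pr1 was close to the limit of detection, with 0, 0 and 4.93 in M-MDSC LD and 2.59, 12.4 and 6.73 in M-MDSC Ctrl. Itgb5 had 1152, 2271 and 2799.8 in M-MDSC LD and 1405, 1361 and 1320.0 in M-MDSC Ctrl and was not called, its log2 change being 0.51 (limma adjusted p = 0.425). Replicate 1 lay below the Ctrl libraries and replicates 2 and 3 above them, and without M-MDSC LD replicate 1 Itgb5 was called, at 0.89, limma adjusted p = 0.0226. Itga1 had 436, 312 and 301 in M-MDSC LD and 534, 725 and 618 in M-MDSC Ctrl, a log2 change of -0.85 (SE 0.42, limma adjusted p = 0.411). Its libraries did not overlap, and it was called by DESeq2 (adjusted p = 0.0108) and by limma with M-MDSC fitted alone (adjusted p = 0.0104). Itgal, Itgav and Icam1 also had no overlap, with log2 changes of 0.18, 0.12 and -0.16 that were not called. The 95% intervals of the log2 change were -0.36 to 0.14 for Itgam, -0.06 to 0.43 for Itgal, -0.05 to 0.51 for Itgb2, -0.13 to 0.41 for Itgb1, -0.29 to 0.33 for Itga4, -0.31 to 0.12 for Selplg and -0.19 to 0.32 for Cd44.

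**Figure D3:**
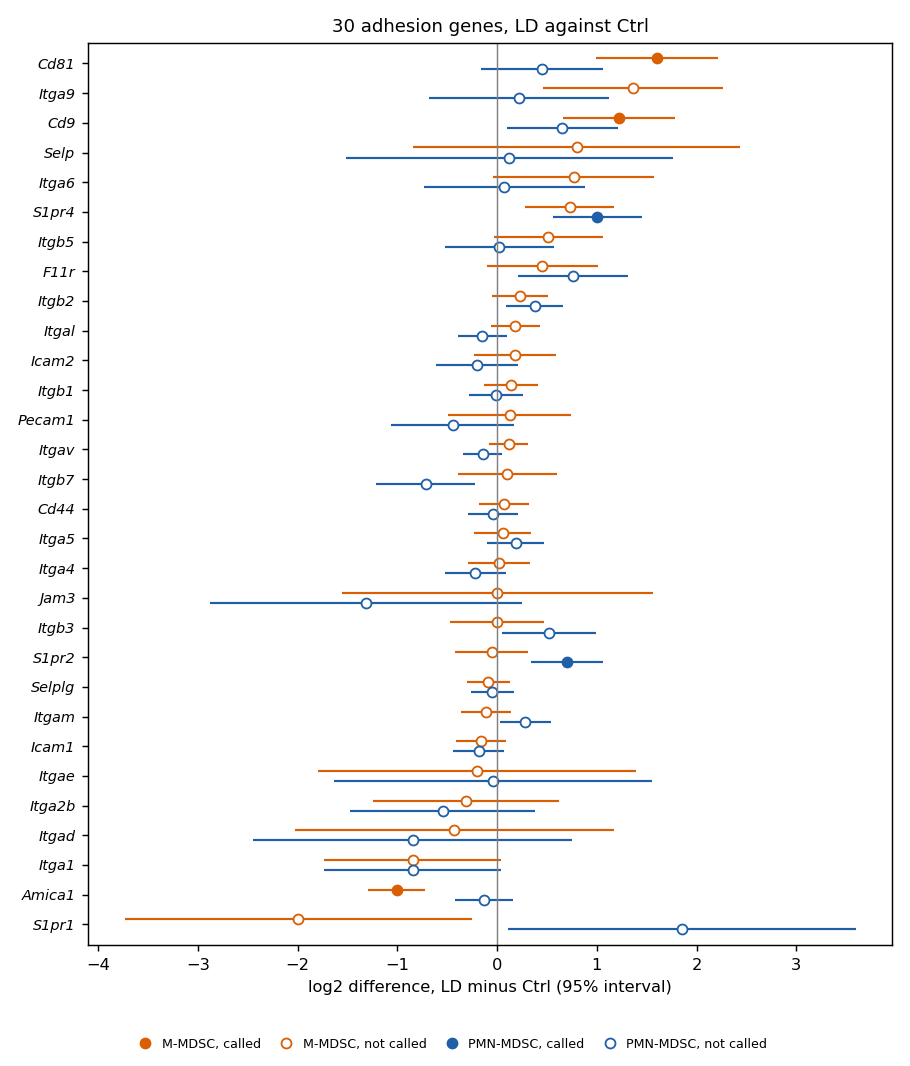
Log2 change, LD minus Ctrl, with its 95% interval for the 30 tested adhesion genes in M-MDSC (orange, upper of each pair) and PMN-MDSC (blue), ordered by the change in M-MDSC. Filled points are called, namely Cd81, Cd9 and Amica1 in M-MDSC and S1pr2 and S1pr4 in PMN-MDSC.

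In PMN-MDSC, 2 of the 30 genes were called under LD, both sphingosine-1-phosphate receptors and both higher. Of all tested genes 15.7% were called, 7.17% higher and 8.51% lower. LD and Ctrl libraries did not overlap in 9 of 30 genes, against 31.9% of all tested genes. The median log2 change was -0.02 over the 30 genes and -0.05 over all tested genes, and 9 genes had an unadjusted p under 0.05. With both LD replicate 1 libraries left out, a setting chosen after seeing the data, 8 genes were called, 7 of them higher. In that setting 2458 of all 11131 tested genes were called, 1163 higher and 1295 lower, so the calls rose over all genes as well.

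S1pr4, a receptor of leukocytes that couples to G proteins (chr10:81497745-81500137, minus strand), had 759, 1088 and 1153 normalized counts in PMN-MDSC LD and 539, 475 and 463 in PMN-MDSC Ctrl. Its log2 change was 1.0 (SE 0.21, limma adjusted p = 0.00617), 2.0-fold, and all 3 LD libraries lay above all Ctrl libraries, replicate 1 the least. S1pr2, which in B cells restrains migration (chr9:20965952-20976793, minus strand), had 181, 184 and 223 in PMN-MDSC LD and 129.6, 115 and 115 in PMN-MDSC Ctrl. Its log2 change was 0.70 (SE 0.17, limma adjusted p = 0.0139), 1.63-fold, with no overlap between the groups. It lost its call without PMN-MDSC LD replicate 3 (0.60, adjusted p = 0.0509 by limma). S1pr1 had 27.1, 115 and 119 in PMN-MDSC LD and 27.5, 12.3 and 20.8 in PMN-MDSC Ctrl, a log2 change of 1.85 (SE 0.81, limma adjusted p = 0.137). Replicates 2 and 3 of LD were well above Ctrl and replicate 1 was within its range, and without PMN-MDSC LD replicate 1 the change was called, at 2.54, limma adjusted p = 0.0461. In M-MDSC LD the S1pr2 level was 226 ± 32.5 (SD, n = 3), where the test between populations made no call.

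**Figure D4:**
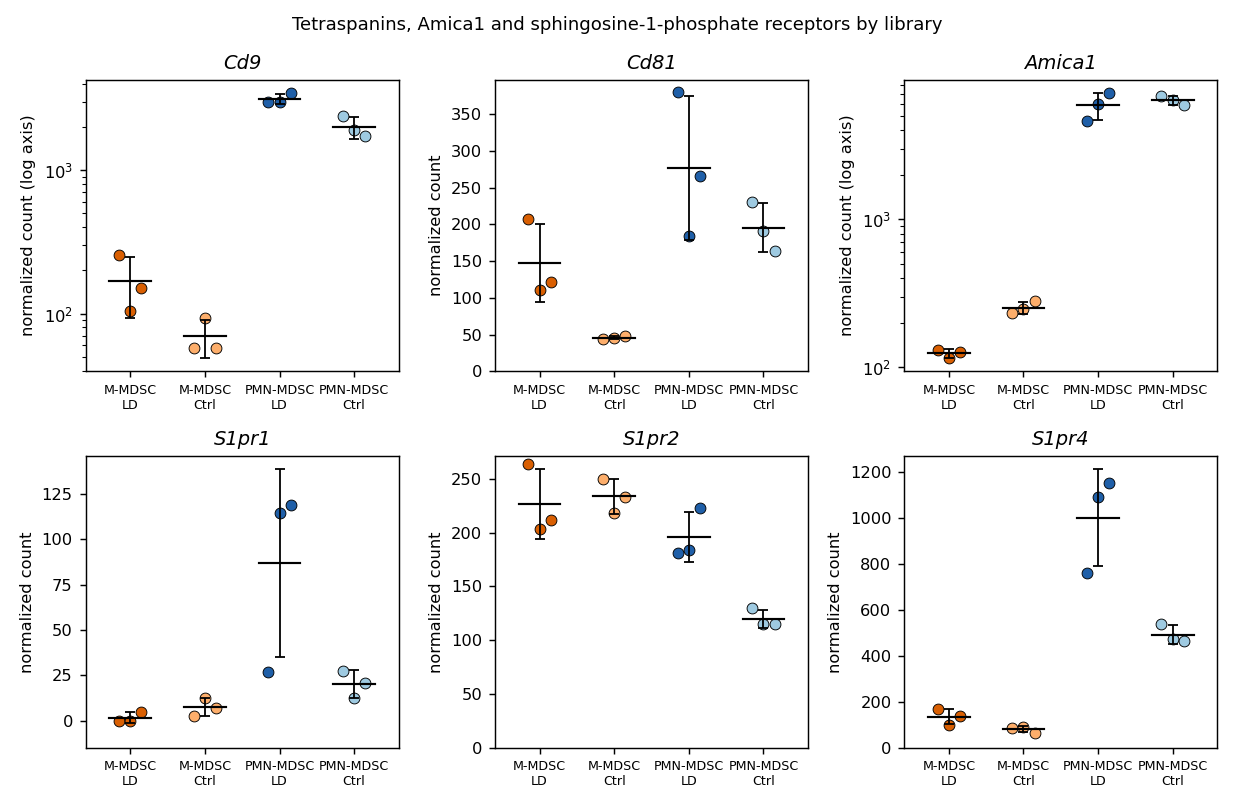
Normalized counts in each of the 12 libraries for Cd9, Cd81, Amica1, S1pr1, S1pr2 and S1pr4, with the mean and SD of each group (n = 3) as a bar and whiskers. Axes for Cd9 and Amica1 are logarithmic. In M-MDSC the LD points of Cd9 and Cd81 lie above Ctrl and those of Amica1 below it, while in PMN-MDSC the LD points of S1pr2 and S1pr4 lie above Ctrl.

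None of the 16 tested integrin chains was called by limma in PMN-MDSC, and 4 had an unadjusted p under 0.05, namely Itgb7, Itgb2, Itgam and Itgb3. DESeq2 called Itgb7 and Itgb2. Itgb7 had 567, 687 and 921 normalized counts in PMN-MDSC LD and 1309, 1279.7 and 953 in PMN-MDSC Ctrl, a log2 change of -0.72 (SE 0.23, limma adjusted p = 0.0501). All LD libraries were below all Ctrl libraries, and Itgb7 was called lower under 11 other settings, among them without PMN-MDSC LD replicate 3 (-0.90, adjusted p = 0.0334 by limma) and DESeq2 (0.0208). The 11 include the setting without both LD replicate 1 libraries and fits without M-MDSC LD replicate 1 or 3, which enter the pooled spread only. With 1 library left out, Itgb7 was not called in 9 of 12 fits, with limma adjusted p up to 0.140. Itgb2 had 32037, 40156 and 43958 in PMN-MDSC LD and 33348, 29022 and 26676 in PMN-MDSC Ctrl, a log2 change of 0.38 (SE 0.13, limma adjusted p = 0.0678). Replicate 1 lay among the Ctrl libraries and replicates 2 and 3 above them, and without PMN-MDSC LD replicate 1 it was called, at 0.51, limma adjusted p = 0.0112, as it was without PMN-MDSC Ctrl replicate 1, at 0.46, limma adjusted p = 0.0492. Itgam had 35377, 41058 and 47199.9 in PMN-MDSC LD and 34295, 33288 and 33322 in PMN-MDSC Ctrl, a log2 change of 0.28 (SE 0.12, limma adjusted p = 0.119), with no overlap. It was called without PMN-MDSC LD replicate 1, at 0.39, limma adjusted p = 0.0255. Itgal, the other leading alpha chain, had 22401, 28968 and 29646 in PMN-MDSC LD and 31859, 28608 and 28660.0 in PMN-MDSC Ctrl, a log2 change of -0.15 (SE 0.12, limma adjusted p = 0.414) and libraries that overlapped.

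Markers of lymphocytes and eosinophils were also read in PMN-MDSC, where 1 B cell marker was called lower under LD and no tested T cell or eosinophil marker was called. Sums over 7 B cell markers were 4.21 to 13.5 normalized counts in PMN-MDSC LD and 71.2 to 137 in PMN-MDSC Ctrl. Over 5 eosinophil markers they were 489.8 to 678 in PMN-MDSC LD and 932 to 1224 in PMN-MDSC Ctrl. These sums were mostly Siglec5, which averaged 496 in PMN-MDSC LD and 921 in PMN-MDSC Ctrl, and Ccr3, at 77.4 and 199. Of the 5, Prg2 was at 0 in both PMN-MDSC groups and Epx at 0 in PMN-MDSC Ctrl. Over 9 T cell markers the sums were 33.8, 159 and 51.9 in PMN-MDSC LD replicates 1, 2 and 3 and 43.1 to 51.9 in PMN-MDSC Ctrl. Of the 9, Cd3e, Cd8a, Cd8b1 and Thy1 were at 0 in all LD libraries, while Cd3d had 25.7, 128 and 51.9 in PMN-MDSC LD and 7.14, 23.7 and 20.8 in PMN-MDSC Ctrl. The part of these cells in the Itgb7 and S1pr1 values was not tested.

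Further genes with an unadjusted p under 0.05 in PMN-MDSC were F11r, Itgb3 and Cd9, with log2 changes of 0.76 (limma adjusted p = 0.0605), 0.52 (limma adjusted p = 0.122) and 0.66 (limma adjusted p = 0.105). Each was higher in 3 of 3 LD libraries than in all Ctrl libraries. Cd9 had 2981, 3012 and 3465 normalized counts in PMN-MDSC LD and 2413, 1903 and 1735 in PMN-MDSC Ctrl. Of the 8 granule genes, 7 were called higher in PMN-MDSC LD, and their part in these values was not tested. F11r was called without M-MDSC Ctrl replicate 1 or 2, and Itgb3 and Cd9 without M-MDSC LD replicate 1, libraries that enter the pooled spread only. Itgad and Icam2 also had libraries that did not overlap, with log2 changes of -0.85 and -0.20, and neither was called. The 95% intervals of the log2 change were -0.28 to 0.26 for Itgb1, -0.53 to 0.09 for Itga4, -0.26 to 0.17 for Selplg, -0.29 to 0.21 for Cd44 and -0.42 to 0.16 for Amica1.

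The test of the difference of the LD changes, M-MDSC minus PMN-MDSC, asks whether the populations responded differently. It called 1 of 30 genes, Amica1, with a negative difference, and 6 had an unadjusted p under 0.05. Of all tested genes 2.25% were called, 1.18% with a positive and 1.07% with a negative difference. Amica1 differed by -0.88 (SE 0.19, limma adjusted p = 0.0304), with a log2 change of -1.01 in M-MDSC and -0.13 in PMN-MDSC, where 4618, 5995 and 7059 normalized counts in LD overlapped 6759, 6397 and 5928 in Ctrl. This call is close to the threshold. It was lost without any 1 of 9 libraries, M-MDSC LD replicates 2 and 3, M-MDSC Ctrl replicates 2 and 3, PMN-MDSC LD replicates 2 and 3 and each of the PMN-MDSC Ctrl replicates, with log2 differences of -0.92 to -0.74 and limma adjusted p of 0.0505 to 0.0768. The S1P receptors were not called, with differences of -3.85 (limma adjusted p = 0.0935) for S1pr1, -0.75 (limma adjusted p = 0.115) for S1pr2 and -0.27 (limma adjusted p = 0.675) for S1pr4. Neither were the tetraspanins, at 1.15 (limma adjusted p = 0.15) for Cd81 and 0.57 (limma adjusted p = 0.45) for Cd9, so a call in 1 population and not in the other is not shown to be a difference. Without PMN-MDSC LD replicate 1, S1pr1 and Cd81 were called, at -4.54, adjusted p = 0.0281 and 1.41, adjusted p = 0.0421 by limma. Without M-MDSC LD replicate 1, Itgb7 was called, at 1.14, limma adjusted p = 0.0239. With both LD replicate 1 libraries left out, 5 genes were called, 1 higher and 4 lower, where 767 of all 11131 tested genes were called.

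Ratios of chains within a library do not depend on how libraries were scaled. The ratio of Itgam to Itgal per kb was 0.741, 0.778 and 0.845 in M-MDSC LD and 0.953, 0.989 and 0.947 in M-MDSC Ctrl, lower in all LD libraries. In PMN-MDSC it was 2.06, 1.85 and 2.08 in LD and 1.41, 1.52 and 1.52 in Ctrl, higher in all LD libraries. The balance of Mac-1 to LFA-1 alpha chain RNA lay further apart between the populations in LD mice than in Ctrl mice. The ratio of Itgb2 to Itgal was 3.08, 2.98 and 3.19 in PMN-MDSC LD and 2.25, 2.18 and 2.0 in PMN-MDSC Ctrl, again with no overlap. In M-MDSC it was 1.90, 2.14 and 2.08 in LD and 1.86, 2.03 and 2.02 in Ctrl, with overlapping libraries. For Itgb1 to Itgb2, Itgb5 to Itgb2 and Itgb7 to Itgb1, LD and Ctrl libraries overlapped in M-MDSC. In PMN-MDSC only Itgb5 to Itgb2 had no overlap, at 0.00439 to 0.00556 in LD and 0.00583 to 0.00632 in Ctrl. Among single tested genes, LD and Ctrl libraries did not overlap for 23.1% in M-MDSC and 31.9% in PMN-MDSC. Itgam shares 68.7% of its exon bases with Gm49368. These ratios were described without a test. In the fit over all genes the difference of the LD changes was -0.39 (limma adjusted p = 0.231) for Itgam and 0.33 (limma adjusted p = 0.307) for Itgal, neither called.

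**Figure D5:**
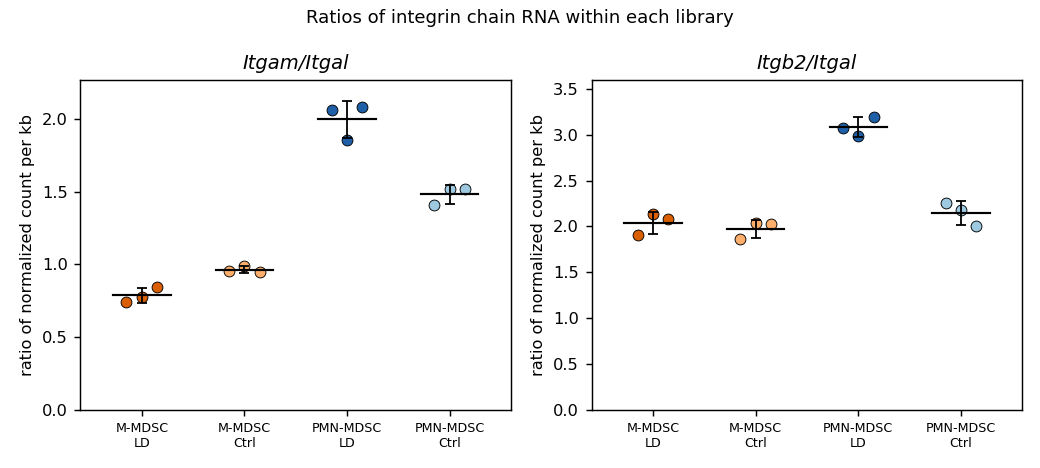
Ratio of Itgam to Itgal (left) and of Itgb2 to Itgal (right), each as normalized count per kb, in each of the 12 libraries, with the mean and SD of each group (n = 3). LD points lie below Ctrl for M-MDSC and above Ctrl for PMN-MDSC on the left, and on the right the PMN-MDSC LD points lie above all others.

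Other genes of adhesion were read from 6 lists. Of 20 tested other adhesion molecules, 5 rose and 2 fell in M-MDSC under LD, against 3.01% of all tested genes called, 2.54% higher and 0.468% lower. Their median log2 change was 0.04, beside -0.04 over all tested genes. Itgb2l, a beta 2 like integrin chain of neutrophils, averaged 439.8 normalized counts in M-MDSC LD and 29.0 in M-MDSC Ctrl, a log2 change of 3.74 (limma adjusted p = 0.000158). Cd24a, a ligand of P-selectin, rose by 1.62 (limma adjusted p = 0.0041), and Itgax (CD11c) rose by 0.88 (limma adjusted p = 0.00611). In PMN-MDSC 5 of the 20 rose and 2 fell, where 7.17% of all tested genes rose and 8.51% fell. Among them were Ceacam1, a homophilic adhesion molecule (log2 change 0.81, limma adjusted p = 0.000585), Itgb2l (log2 change 1.59, limma adjusted p = 0.0109), Spn (CD43) (log2 change 0.49, limma adjusted p = 0.0058) and Alcam, the CD6 ligand (log2 change -0.64, limma adjusted p = 0.000947). The difference of the LD changes was called for Itgax, being 1.52 (limma adjusted p = 0.00561), and for Itgb2l, being 2.15 (limma adjusted p = 0.0474). The granule gene sums given above moved with Itgb2l, Cd24a and Cd63, and their part was not tested. Cd24a averaged 579 ± 328 normalized counts in M-MDSC LD and 169 ± 19.6 in M-MDSC Ctrl, against 7033 ± 997 in PMN-MDSC Ctrl (SD, n = 3 each).

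Of 14 tested tetraspanins besides Cd9 and Cd81, 3 rose in M-MDSC, against 2.54% of all tested genes higher, and their median log2 change was -0.09 beside -0.04 over all tested genes. These were Cd63, a tetraspanin of granules and lysosomes (log2 change 2.71, limma adjusted p = 0.00972), Cd82 (log2 change 0.95, limma adjusted p = 0.000761) and Cd37 (log2 change 0.37, limma adjusted p = 0.0463). In PMN-MDSC, Tspan5 rose (log2 change 0.47, limma adjusted p = 0.0415) and Tspan13 fell (log2 change -0.89, limma adjusted p = 0.000367). The LD changes differed for Cd82, by 0.82 (limma adjusted p = 0.0296), and Tspan13, by 0.71 (limma adjusted p = 0.0406). Among 27 tested genes of integrin activation and signalling, 1 rose in M-MDSC, the focal adhesion gene Parvg (log2 change 0.78, limma adjusted p = 0.0086). In PMN-MDSC 5 rose and 4 fell, against 7.17% of all tested genes higher and 8.51% lower, and the median was -0.02 beside -0.05 over all tested genes. They include Lims1 (PINCH1, a partner of integrin-linked kinase) (log2 change 1.29, limma adjusted p = 4.08e-05), Vcl (vinculin) (log2 change 0.75, limma adjusted p = 0.000264), Parvg (log2 change 0.68, limma adjusted p = 0.0067), and Crk, an adaptor (log2 change -0.53, limma adjusted p = 0.00175). The LD changes differed between the populations for 3 genes of this list, by -1.32 for Lims1 (limma adjusted p = 0.00225), by -0.53 for Vcl (limma adjusted p = 0.0487) and by 0.52 for Crk (limma adjusted p = 0.0458).

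Of 9 tested integrin ligands, Thbs1 (thrombospondin 1) fell and Vcam1, the ligand of alpha 4 beta 1, rose in M-MDSC, where 3.01% of all tested genes were called. Thbs1 averaged 189 normalized counts in M-MDSC LD and 933 in M-MDSC Ctrl, a log2 change of -2.24 (limma adjusted p = 0.00302). It was the 1 ligand whose LD changes differed between the populations, by -2.42 (limma adjusted p = 0.0266). Vcam1 is also 1 of the macrophage markers summed above. Vcam1 averaged 99.8 in M-MDSC LD and 27.1 in M-MDSC Ctrl, a log2 change of 1.79 (limma adjusted p = 0.0451). In PMN-MDSC the ligands Fn1 (fibronectin) and Vwf fell, with log2 changes of -0.79 (limma adjusted p = 0.0386) and -1.27 (limma adjusted p = 0.0233). Of all tested genes 8.51% fell in PMN-MDSC. Of 12 genes that build selectin ligands, 0 were called in M-MDSC and 3 in PMN-MDSC, where 15.7% of all tested genes were called. B4galt1 rose (log2 change 0.51, limma adjusted p = 0.00735), and the glycosyltransferases St3gal4 and Gcnt1 fell, with log2 changes of -0.53 (limma adjusted p = 0.00188) and -0.48 (limma adjusted p = 0.0173). Of 12 further genes of sphingosine-1-phosphate signalling, 0 were called in M-MDSC and 3 in PMN-MDSC, beside the same 15.7% of all tested genes in PMN-MDSC. There the receptor S1pr5 averaged 27.1 in LD and 61.1 in Ctrl, a log2 change of -1.12 (limma adjusted p = 0.0078), opposite in sign to S1pr2 and S1pr4. Klf2, a factor that drives S1pr1 in lymphocytes, fell (log2 change -0.56, limma adjusted p = 0.0262), and the G protein Gnai2 rose (log2 change 0.40, limma adjusted p = 0.0366). S1pr5 was the 1 gene of this list whose LD changes differed between the populations, by 1.94 (limma adjusted p = 0.0104).

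Between the populations in Ctrl, 5 of 27 integrin signalling genes were higher and 20 lower in M-MDSC, where 38.8% of all tested genes were higher and 36.8% lower. Their median log2 difference was -0.79, beside 0.06 over all tested genes. Of 9 integrin ligands 3 were higher and 3 lower in M-MDSC Ctrl, with a median of 0.63. Pxn (paxillin) averaged 2021 normalized counts in M-MDSC Ctrl and 13273 in PMN-MDSC Ctrl, and Zyx (zyxin) 5644 and 28112. In M-MDSC Ctrl, 5 other adhesion molecules were higher and 10 lower of 20, 4 tetraspanins higher and 7 lower of 14, and 3 genes of selectin ligand synthesis higher and 5 lower of 12. St3gal6, a sialyltransferase that caps selectin ligands, averaged 10.2 in M-MDSC Ctrl and 1434 in PMN-MDSC Ctrl, a log2 difference of -7.17 (limma adjusted p = 1.72e-10). Slc35c1 of the same list went the other way, at 894 in M-MDSC Ctrl and 355 in PMN-MDSC Ctrl. Its log2 difference was 1.32 (limma adjusted p = 1.55e-07). Fn1, the ligand of alpha 4, alpha 5 and alpha v integrins, stood out on the M-MDSC side, at 54595 in M-MDSC Ctrl and 1516 in PMN-MDSC Ctrl. S1pr5 averaged 367 in M-MDSC Ctrl and 61.1 in PMN-MDSC Ctrl, a log2 difference of 2.60 (limma adjusted p = 1.88e-07). In LD, 3 of 27 signalling genes were higher and 20 lower in M-MDSC, against 38.8% and 36.1% of all tested genes, with a median of -0.63 beside 0.10 over all tested genes.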

How the data were processed

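RNA-seq of 12 libraries was analysed from 1 table of normalized counts that the authors deposited, a signal on the scale of reads divided by a size factor per library. STAR 2.5.3a, HTSeq 0.6.1, DESeq2 and the build mm10 are named, per the submitters' processing notes. Their order and roles, the gene annotation and the strandedness are not given in the sources used here. Dividing each deposited signal value by the step between low values gave whole reads for 100% of values within 0.001, and these reads set the depth per library and served the count tests. Reads carry no molecular identifiers, so depth covers counting error only.

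Genes with a mean of at least 10 over the 12 libraries (11122 of 23479) were fitted with limma 3.58.1 (R 4.3.3) on log2(normalized count + 1) over all 4 groups, with 8 residual degrees of freedom and no covariate. Fold changes are on that scale and understate changes of low genes. P-values were adjusted by the Benjamini-Hochberg method over all tested genes, with a threshold of 0.05. The 5 contrasts were LD against Ctrl in each population, their difference, and M-MDSC against PMN-MDSC in each treatment. The scripts were tested on simulated data.

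Alternatives were offsets of 0.5 and 8, no minimum level, a minimum of 50, TMM scaling (edgeR 4.0.16), edgeR's quasi-likelihood test, DESeq2 1.42.0, replicate blocks, each population or treatment fitted alone and each library left out. Leaving out both LD replicate 1 libraries was chosen after seeing the data. Lengths are merged exons of GENCODE M21, and gene positions and promoter sequences are from RefSeq (GRCm38.p6), which held 23 of the 35 promoters. For Amica1 the current symbol is Jaml, and the other 34 symbols are current.

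The 35 genes and the other lists were chosen with earlier results of these data known. Named with full values are genes called under LD or in the difference, the 6 largest differences in each direction between populations in Ctrl, and Itgam, Itgal, Itgb2, Itgb1, Itga4, Selplg, Cd44 and S1pr1. From each other list up to 4 genes with the smallest adjusted p per comparison could be named. Computation used Python 3.11.15, numpy 2.4.6, pandas 2.3.3 and matplotlib 3.10.9.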

Additional observations from a re-analysis of the deposited data

Results flagged for a closer look

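The change of Amica1 under LD differed between M-MDSC and PMN-MDSC, by -0.88 on the log2 scale in the limma test of the difference itself. It fell by 1.01 in M-MDSC, with all 3 LD libraries below all 3 Ctrl libraries, and its change in PMN-MDSC was -0.13 with overlapping libraries. The limma adjusted p of 0.0304 passed the threshold no longer when any 1 of 9 libraries was removed, where it was 0.0505 to 0.0768.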

How the results depend on the processing

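No adhesion gene called in either of the settings compared changed sign between the main test and an alternative run. Counts of adhesion genes called moved by over 1.5 times in the LD comparisons as follows. In M-MDSC, 3 genes were called, and 6 by DESeq2. In PMN-MDSC, 2 genes were called, 4 with an offset of 8, 4 with TMM scaling, 5 by DESeq2, 4 with a replicate block by number, 5 with PMN-MDSC fitted alone and 8 without both LD replicate 1 libraries. For the difference of the LD changes, 1 gene was called, 0 by limma with no minimum level (7 at an unadjusted p under 0.05), 2 by DESeq2, 2 with a replicate block by presumed animal and 5 without both LD replicate 1 libraries. Leaving out each library gave 2 to 4 genes in M-MDSC, 2 to 5 in PMN-MDSC, 0 to 3 for the difference, 23 to 25 between populations in Ctrl and 24 to 26 in LD. Over all genes, the count in M-MDSC was 335, against 723 by DESeq2, 532 with M-MDSC fitted alone and 192 to 548 with 1 library left out. In PMN-MDSC it was 1745, against 2458 without both LD replicate 1 libraries and 889 to 2163 with 1 library left out. For the difference it was 250, against 125 with no minimum level, 699 by DESeq2, 536 with the block by presumed animal, 767 without both LD replicate 1 libraries and 115 to 824 with 1 library left out. Of the 250 called differences, 131 were positive and 119 negative, against 194 and 96 by edgeR. The causes were not tested. Between M-MDSC and PMN-MDSC samples of the same number, deviations from the group means had correlations of 0.208, 0.125 and 0.068 in LD. In Ctrl they were -0.037, 0.054 and 0.135. Samples of different numbers had correlations of -0.156 to 0.053 in LD and -0.154 to 0.099 in Ctrl. The same-number values thus lay above the others in LD and among them in Ctrl. Whether the numbers pair the samples remains unknown, and the main fit used no pairing. Genes with a mean under 10 normalized counts, among them 5 adhesion genes, were below the minimum level and entered only the fit without it, and the folds of Selp, Itgad, Itgae and S1pr1 depend on the offset.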
